A study of Mus musculus with 4 samples.

Results

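Macrophages exposed to interleukin-4 (IL-4) or IL-13 take on an alternatively activated state, which is associated with tissue repair, helminth infection and lipid use. Both cytokines act through receptors that contain the IL-4 receptor alpha chain, and the receptor activates the transcription factor STAT6, which binds palindromic sites near its target genes. Arg1, Chil3 and Retnla are the classic mouse markers of this state, and the nuclear receptor Pparg and the zinc finger factor Klf2 act upstream of parts of the program. Here the chromatin accessibility of 9 such genes was examined: Il4ra, Pparg, Klf2, Arg1, Chil3, Retnla, Mgl2, Clec10a and Pdcd1lg2. The cells had not been given IL-4 per the labels, so the values describe these loci in the resting state.

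ATAC-seq, in which a transposase cuts accessible DNA, was performed on bone marrow-derived macrophages (BMDMs) grown for 6 to 8 days in medium with 10% serum and 20% L929-conditioned medium. WT cells came from H3f3a fl/fl H3f3b fl/fl mice without Cre, and H3.3cKO cells (cKO) from mice with the same floxed alleles and LysM cre/cre, which deletes both histone H3.3 genes in myeloid cells. Each genotype had 2 biological replicates, and both genotypes carry the floxed alleles, whereas Cre is present in cKO only. LysM is the Lyz2 locus, which is active in the myeloid lineage, and per the study the deletion of H3f3b can be partial.

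The members were all peaks of the 4 deposited peak lists that overlapped the body of 1 of the 9 genes or the 20 kb on either side. Peaks that overlapped between libraries were merged into regions, which gave 64 regions at the 9 genes out of 71243 in all. Of the 64, 40 were called in all 4 libraries, 7 in both WT and neither cKO library (lost), 2 in both cKO and neither WT library (gained) and 15 in another combination. The size of a peak is given as the percentile of its area among all peaks of its own list, so that 100 is the largest peak of the library. The median percentile of the 40 regions called in all 4 libraries was 59.7, and it was 59.7 over all 44820 such regions.

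The WT lists held 55742 and 64939 peaks for replicates 1 and 2, and the cKO lists held 51955 and 60884. Replicate 2 therefore had the longer list in each genotype, and WT had the longer list within each replicate number. A peak of the same rank gets a higher percentile in a longer list, which also holds more weak peaks. For this reason the percentiles are given per library, and a second calculation used lists cut to the length of the shortest one. Promoter peaks were present for 7 of 8 macrophage marker genes in every library, the exception being Spi1. None of 4 T cell, 4 erythroid or 4 fibroblast marker promoters was called in any library, 1 of 4 B cell and 2 of 4 dendritic cell promoters were called in every library, and neutrophil promoters numbered 1 of 4 in each WT and 2 of 4 in each cKO library. The part of other cell types in the results was not tested. As for the deleted genes, a region in an exon of H3f3a was called in both WT lists, at percentiles 5.02 and 19.1, and in neither cKO list. An intronic H3f3b region stayed in all 4 lists, at 94.2 and 95.5 in WT against 87.0 and 81.4 in cKO.

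Over the 9 loci, the lists held 53 and 58 peaks in WT against 43 and 56 in cKO. The means were 55.5 ± 3.54 in WT and 49.5 ± 9.19 in cKO (SD, n = 2 each), a difference of -6 peaks that was smaller than the spread between the cKO replicates (two-sided exact permutation test over 6 assignments, p = 0.667, where the smallest possible p is 0.333). Peaks covered 25.2 and 27.9 kb in WT against 20.0 and 25.8 kb in cKO, a difference of -3.65 kb (the same exact test, p = 0.667). Within replicate number 1 the difference was -10 peaks and -5.20 kb, and within replicate number 2 it was -2 peaks and -2.11 kb. The loci did not share 1 direction, as shown by the length covered at each gene.

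**Figure D1:**
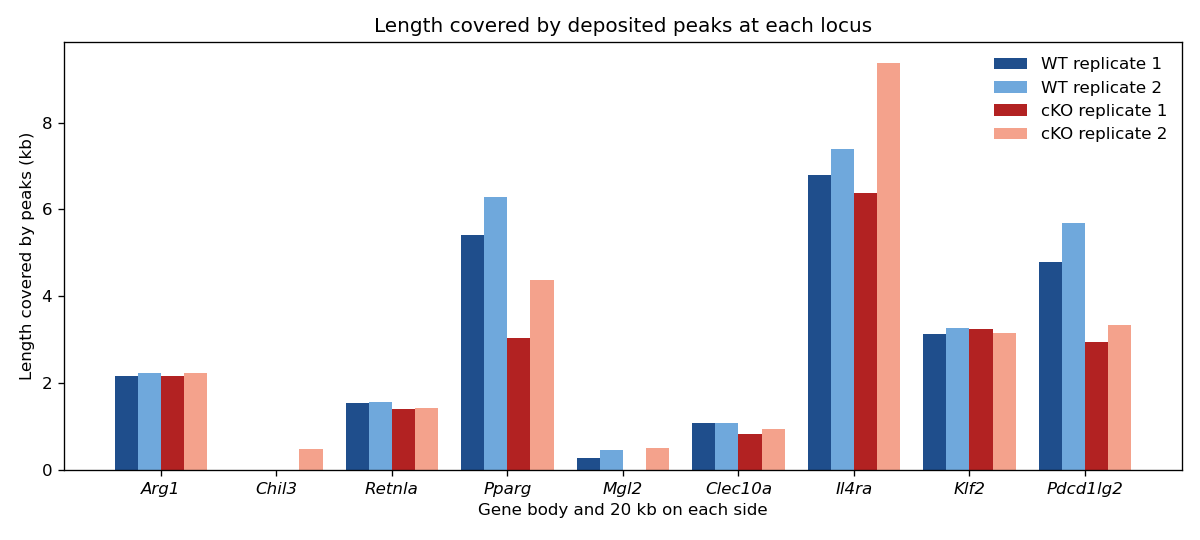
Length of DNA covered by peaks (kb, y axis) within the body and 20 kb on both sides of each of the 9 genes (x axis), with 1 bar per library. Covered length at Pdcd1lg2, Pparg, Clec10a and Retnla was lower in both cKO libraries than in either WT library, as for 39.1% of 17263 protein-coding genes with a peak, and at Il4ra the highest value was that of cKO replicate 2, at 9.38 kb.

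Gained regions made up 3.72% of all regions and lost regions 7.25%. At the 9 genes, 2 of 64 regions (3.12%) were gained, both at Il4ra, and 7 of 64 (10.9%) were lost, of which 4 lay at Pparg and 3 at Pdcd1lg2. Of the 40 regions called in all 4 libraries, 20 (50%) had both cKO percentiles below both WT percentiles, which was so for 35.1% of all such regions. Pdcd1lg2 alone held 8 of these 20. The opposite order was found for 6 members (15.0%) and for 22.2% of all such regions. With lists of equal length, 17 of 38 members were lower and 17 of 38 higher without overlap, against 35.7% and 36.8% of the 41715 regions compared in that way. Of the lower ones 7 lay at Pdcd1lg2, and of the higher ones 8 lay at Il4ra. The surplus of lower members over higher ones therefore depended on the length of the lists. Median differences between genotypes were -1.46 percentile points for the members and -1.10 for all regions.

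The regions called in all 4 libraries were compared with limma, on percentiles converted to standard normal scores. This test called 0 of 44820 regions at an adjusted p of 0.05 (0%), and the lowest adjusted p of a member was 0.0883. At an unadjusted p of 0.05, 10 of the 40 members were lower in cKO and 0 were higher, and the same threshold was passed in those directions by 14.4% and 7.96% of all regions. With lists of equal length, limma called 7 of 38 members lower (18.4%) and 3 higher (7.89%), and it called 11.8% and 12.1% of all regions lower and higher. The main test was the percentile fit of all deposited peaks, and the equal-length fit was an alternative to it. Unless stated otherwise, the adjusted p-values given for single regions below come from this equal-length fit. The percentiles printed beside them are those of the deposited lists. None of the equal-length member calls passed in the main test. Their limma adjusted p-values there ran from 0.0883 (chr19:29484518-29484955) to 0.278 (chr7:125539298-125539676). A limma fit of log2 areas from the deposited lists included all of these member calls among its own. It called 5 of the 40 members higher and 10 lower, against 9087 and 6315 of all 44820 regions.

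**Figure D2:**
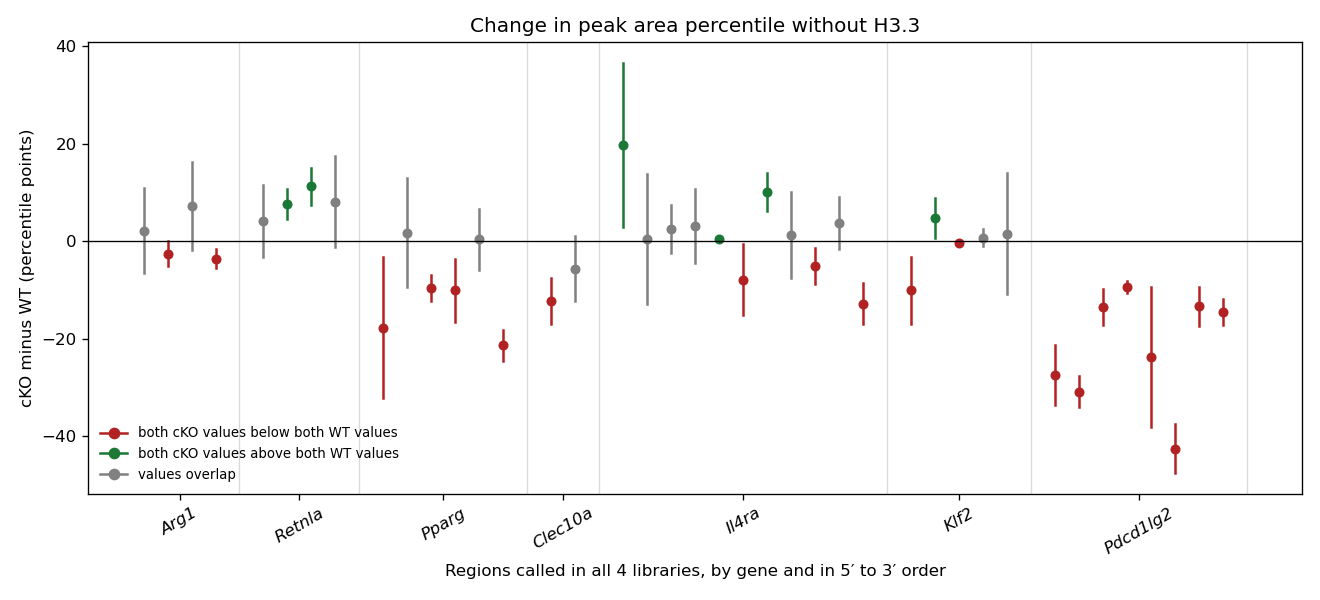
Difference in percentile, cKO minus WT (percentile points, y axis), for each of the 40 regions called in all 4 libraries, grouped by gene and in 5′ to 3′ order (x axis). Points are the differences of the group means, and vertical lines run from the lowest to the highest of the 4 differences between single libraries. All 8 Pdcd1lg2 regions lie below 0, and all 4 Retnla points lie above it.

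Il4ra encodes the receptor chain through which both cytokines signal. The gene lies on the forward strand of chromosome 7 at 125552120 to 125579474 (ENSMUSG00000030748.9, mm10), and its window held the most regions, 18, and 11 of them had a peak in every library. Its promoter region, chr7:125550995-125552740, had percentiles of 82.5 and 84.8 in WT against 82.4 and 89.8 in cKO, so the genotypes overlapped. An intronic region 3.48 kb into the gene, chr7:125555187-125556020, was still higher in its lists, at 91.7 and 92.4 in WT against 92.4 and 92.4 in cKO. The genotype means of these 2 regions differed by 2.48 and 0.39 points.

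Differences at Il4ra lay further out. The intergenic region chr7:125539298-125539676, 12.6 kb upstream of the gene start, had percentiles of 13.4 and 30.2 in WT against 33.1 and 49.9 in cKO. Both cKO values were above both WT values, with a mean difference of 19.7 points, and the equal-length limma fit called it higher (difference 0.98 ± 0.15 normal-score units (SE), adjusted p = 0.0267). Downstream of the gene, chr7:125581103-125581716 moved in the same direction, at 57.4 and 60.2 in WT against 66.4 and 71.3 in cKO (equal-length limma difference 0.37 ± 0.06 (SE), adjusted p = 0.0332). The most distal region of the window, chr7:125597101-125597490, had lower values in cKO (33.7 and 39.4) than in WT (47.9 and 50.8). It did not pass the equal-length limma test (adjusted p = 0.101), and limma called it lower only when log2 areas were fitted (adjusted p = 0.0488).

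Both gained regions belonged to this gene. One, chr7:125541931-125542176, is intergenic, 10.1 kb upstream, and had percentiles of 8.91 and 15.8 in the cKO lists. The other, chr7:125575842-125576110, lies in a coding exon of Il4ra, at 11.1 and 23.2 in cKO. Both were weak peaks below percentile 25 of the lists, and neither WT list held a peak there. In addition, cKO replicate 2 alone had peaks at chr7:125579599-125580273 (36.5) and at chr7:125572885-125573201 (3.23), where cKO replicate 1 had none.

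The sequences of 2 of these regions are shown, 100 bp on both sides of the summit of the top-ranked peak on the forward strand of mm10 from the RefSeq assembly, because they are the gained region of highest percentile (chr7:125575859-125576059) and the region with the largest positive difference (chr7:125539387-125539587). Capitals mark matches to the motifs described further below. The gained exonic region had none, and the upstream region had matches for KLF, C/EBP and RUNX.
Il4ra exonic region: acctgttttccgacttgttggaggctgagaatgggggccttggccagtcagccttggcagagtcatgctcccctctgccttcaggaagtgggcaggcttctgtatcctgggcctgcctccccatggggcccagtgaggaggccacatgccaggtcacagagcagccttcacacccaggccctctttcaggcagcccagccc
Il4ra upstream region: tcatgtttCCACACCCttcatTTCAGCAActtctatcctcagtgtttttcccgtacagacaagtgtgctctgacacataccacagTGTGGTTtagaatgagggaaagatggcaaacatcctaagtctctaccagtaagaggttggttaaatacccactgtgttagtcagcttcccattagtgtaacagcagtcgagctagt

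Pparg encodes PPARγ, a lipid-sensing nuclear receptor that binds DNA with RXR. It lies on the forward strand of chromosome 6 at 115360951 to 115490399 (ENSMUSG00000000440.12), and 13 regions fell in its window: 6 called in all 4 libraries, 4 lost and 3 in other combinations. The lists held 12 and 13 peaks there in WT against 6 and 9 in cKO. These counts did not overlap between genotypes, which was also so, in the same direction, for 28.6% of the 1064 protein-coding genes with at least 13 regions in such a window. At the promoter, chr6:115360748-115361692, the peak stood at percentiles 39.0 and 56.7 in WT and 38.6 in cKO replicate 2, and it was absent from the list of cKO replicate 1.

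The 4 lost regions at Pparg were all intronic and weak. Their WT percentiles were 7.21 and 19.7 at chr6:115434146-115434404, 11.3 and 14.9 at chr6:115468021-115468290, 16.0 and 28 at chr6:115469335-115469589, and 15.9 and 10.8 at chr6:115485703-115486068. Next to the third of them, the intronic region chr6:115469862-115470381 was larger, at 49.5 and 57.6 in WT, 9.95 in cKO replicate 2 and not called in cKO replicate 1. With lists of equal length 2 Pparg regions were lost, chr6:115469335-115469589 and this larger region, whose weak cKO peak was no longer in its list, while WT peaks of the other 3 regions did not all remain. Among the 1064 genes with at least 13 regions, 19.5% had 3 or more lost regions, and Pdcd1lg2 and Pparg were among them.

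Of the Pparg regions called in all 4 libraries, the one beyond the 3′ end had the clearest difference. This intergenic region, chr6:115504833-115505415, had percentiles of 69.9 and 70.7 in WT against 46.2 and 51.8 in cKO, with a mean difference of -21.3 points (equal-length limma difference -0.53 ± 0.07 (SE), adjusted p = 0.0224). The upstream region chr6:115343124-115343453 had 31.3 and 49.5 in WT against 28 and 17.3 in cKO, and the exonic region chr6:115462906-115463353 had 73.2 and 75.2 against 58.6 and 69.6. Neither passed (adjusted p = 0.300 and 0.105 with limma). A large intronic region near the 3′ end, chr6:115479982-115481078, had overlapping values, at 79.5 and 83.0 in WT against 77.0 and 86.1 in cKO.

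Klf2, a transcription factor that restrains inflammatory gene expression in macrophages, lies on chromosome 8 at 72319033 to 72321656 on the forward strand (ENSMUSG00000055148.7). All 5 of its regions were called in all 4 libraries. Its promoter region, chr8:72318600-72319736, had the highest promoter percentiles of the 9 genes, 92.2 and 92.4 in WT against 92.0 and 91.9 in cKO. A second region that reached the promoter, chr8:72317503-72318131, was at 56.5 and 63.3 in WT against 64.0 and 65.3 in cKO. The region just beyond the 3′ end, chr8:72322123-72323047, was at 89.4 and 90.9 in WT against 89.9 and 91.9 in cKO. Only chr8:72303533-72304032, 15.2 kb upstream, differed by 10 points or more, at 60.2 and 58.5 in WT against 43.1 and 55.3 in cKO, and it was not called (limma adjusted p = 0.259). A weak region 12.3 kb downstream of the gene start, chr8:72331175-72331433, was at 11.5 and 6.32 in WT against 0.70 and 20.2 in cKO, so its spread within cKO was larger than any difference between the genotypes.

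Arg1 encodes arginase 1, which converts arginine to ornithine and urea. It spans 24915221 to 24927484 of chromosome 10, reverse strand (ENSMUSG00000019987.9). All 4 of its regions were called in all 4 libraries, and none differed by 10 points or more. The promoter region, chr10:24927836-24928511, was at 51.3 and 60.6 in WT against 58.7 and 67.5 in cKO. These values overlapped, and limma called the region higher only when log2 areas were fitted (difference 0.38 ± 0.11 (SE), adjusted p = 0.0387). Larger peaks stood 2.88 kb upstream of the gene start, chr10:24930040-24930692, at 83.9 and 87.0 in WT against 81.9 and 83.9 in cKO, and beyond its 3′ end in an intron of Med23, chr10:24911101-24911828, at 86.1 and 86.8 in WT against 81.2 and 84.4 in cKO. The upstream region held a STAT6 motif match. The fourth region, chr10:24931562-24931833, was at 39.9 and 45.2 in WT against 38.6 and 50.7 in cKO. No region of Arg1 was called by limma on percentiles, with the deposited or the equal-length lists.

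Chil3 encodes the chitinase-like protein Ym1, and Retnla encodes the secreted protein Fizz1. No peak overlapped the promoter of either gene in any library. Chil3, at 106147554 to 106167564 of chromosome 3 (reverse strand, ENSMUSG00000040809.10), had no peak at all in WT or in cKO replicate 1. Only the list of cKO replicate 2 held peaks there, at percentiles 2.15 and 14.8, both upstream and intergenic (chr3:106170730-106170973 and chr3:106172596-106172838). A missing peak means only that the site was under the limit of the peak caller in that library.

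Retnla, on the forward strand of chromosome 16 at 48842551 to 48844461 (ENSMUSG00000061100.4), had 4 regions, all intergenic and all called in the 4 libraries. The mean percentile was higher in cKO at each of them, by 4.13 to 11.2 points. The largest difference was at chr16:48833670-48834001, 8.72 kb upstream, with 46.0 and 52.6 in WT against 60.0 and 61.1 in cKO, and the equal-length limma fit called it higher (difference 0.40 ± 0.08 (SE), adjusted p = 0.0365). Its neighbour chr16:48831154-48831744 was at 57.4 and 62.3 in WT against 66.8 and 68.2 in cKO (limma adjusted p = 0.0540 with equal lengths, and 0.0354 when log2 areas were fitted). The values of the other 2 regions overlapped, as at chr16:48863286-48863638, 20.9 kb downstream of the gene start, with 17.1 and 34.5 in WT against 34.5 and 33.3 in cKO. With lists of equal length, all 4 Retnla regions were higher in cKO without overlap, an order found for 36.8% of all regions compared in that way. The share of genes with every region in this order is not given here. The length covered by peaks at Retnla went the other way, with 1.54 and 1.56 kb in WT against 1.40 and 1.43 kb in cKO. The sequence around the summit of the region with the largest difference, chr16:48833737-48833937, is shown because it was the only Retnla region called in the equal-length fit. It holds matches for PU.1, the macrophage lineage factor, and for C/EBP.
Retnla upstream region: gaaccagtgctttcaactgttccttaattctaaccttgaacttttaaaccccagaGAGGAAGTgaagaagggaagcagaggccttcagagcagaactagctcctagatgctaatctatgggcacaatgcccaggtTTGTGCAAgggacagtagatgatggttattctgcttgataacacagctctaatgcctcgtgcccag

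Mgl2 and Clec10a encode related C-type lectins that bind galactose-type sugars, and both lie on the forward strand of chromosome 11. Their windows shared 21.4 kb, in which there were 0 regions, so no region was counted for both genes. Mgl2, at 70130329 to 70137550 (ENSMUSG00000040950.13), had a promoter region, chr11:70129827-70130278, at 33.6 and 34.1 in WT, 5.49 in cKO replicate 2 and not called in cKO replicate 1. Since 1 cKO library had a peak, this region does not count as lost, but it was lost with lists of equal length, which no longer held that peak. A second region, chr11:70121305-70121558, was found in cKO replicate 2 alone, at percentile 4.58.

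At Clec10a, which spans 70156197 to 70170834 (ENSMUSG00000000318.16), both regions were called in all 4 libraries. The promoter region, chr11:70166206-70166947, overlaps a start within the annotated gene, 10.4 kb downstream of its 5′ end. Percentiles were 79.3 and 81.7 in WT against 64.7 and 71.7 in cKO, so that both cKO values lay below both WT values, with a mean difference of -12.3 points. In the equal-length limma fit this region was called lower (difference -0.35 ± 0.06 (SE), adjusted p = 0.0298). The other region, chr11:70185150-70185534, had overlapping values, 48.9 and 57.6 in WT against 45.2 and 49.9 in cKO. Of the 4 genes whose promoter could be tested, the Clec10a promoter was the only one called in the equal-length fit, and the part of the summit window before the first exon, chr11:70166473-70166622, is therefore shown, with its PU.1 match in capitals.
Clec10a promoter: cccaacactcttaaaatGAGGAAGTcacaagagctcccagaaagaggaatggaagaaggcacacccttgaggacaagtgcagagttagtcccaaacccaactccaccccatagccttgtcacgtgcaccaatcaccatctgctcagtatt

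Pdcd1lg2 encodes PD-L2, a ligand of the inhibitory T cell receptor PD-1 that IL-4 induces in macrophages. It lies on the forward strand of chromosome 19 at 29410919 to 29471161 (ENSMUSG00000016498.10). Here 8 regions were called in all 4 libraries, 3 were lost and 3 had other combinations, and the lists held 12 and 14 peaks in WT against 8 and 10 in cKO. Peak counts were likewise lower in both cKO libraries for 28.6% of the 1064 protein-coding genes with at least 13 regions. No peak overlapped the promoter as defined here, from 1 kb upstream to 100 bp downstream of a start. Each library had a peak within 2.5 kb of a start, but of a start inside the annotated gene. These peaks belong to the intronic regions chr19:29419288-29419796 and chr19:29420026-29420483 described below, 8.62 and 9.34 kb downstream of the 5′ end.

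All 8 shared regions at Pdcd1lg2 had both cKO percentiles below both WT percentiles, with differences from -9.39 to -42.6 points and a median of -19.1. This count was noted after the values had been seen. Among protein-coding genes with at least 8 such regions in their window, 0.469% of 1494 had every one of them in that order. With lists of equal length, 7 of the 8 could be compared, all 7 kept the order, and limma called 5 of them lower.

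The largest difference of any member was at chr19:29484518-29484955, in an intron of the neighbouring gene A930007I19Rik, 73.8 kb downstream of the Pdcd1lg2 start. Its percentiles were 57.5 and 58.4 in WT against 10.8 and 20.0 in cKO, so a peak of middle size in WT was among the smaller peaks of the cKO lists (equal-length limma difference -1.42 ± 0.13 (SE), adjusted p = 0.0153). Nearby, chr19:29486513-29487035 was at 78.0 and 79.5 in WT against 62.2 and 68.6 in cKO (limma adjusted p = 0.0285 with equal lengths). The adjacent region chr19:29487932-29488825, the largest of the locus, was at 82.3 and 86.2 in WT against 68.9 and 70.4 in cKO (limma adjusted p = 0.0245 with equal lengths). Both are centred in exons of A930007I19Rik.

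Within the first part of Pdcd1lg2 itself, 2 intronic regions had large differences. Percentiles at chr19:29419288-29419796 were 59.4 and 58.4 in WT against 25.8 and 37.1 in cKO (equal-length limma difference -0.70 ± 0.09 (SE), adjusted p = 0.0213), and this region held STAT6 and AP-1 motif matches. The next, chr19:29420026-29420483, was at 43.2 and 43.7 in WT against 15.6 and 9.65 in cKO, and it could not be compared with equal lengths because not every shortened list held it. Limma did not call it with all deposited peaks (adjusted p = 0.0915). It was called lower when log2 areas were fitted (limma adjusted p = 0.0130), and with only regions of mean percentile above 25 (limma adjusted p = 0.0498). At the 3′ end, chr19:29470006-29470291 was at 35.9 and 44.2 in WT against 6.19 and 26.5 in cKO (limma adjusted p = 0.0441 with equal lengths). The remaining shared regions, chr19:29431013-29431452 and chr19:29462481-29462842, differed by -13.5 and -9.39 points without being called in the equal-length fit (limma adjusted p = 0.0712 and 0.193). The former was called lower when log2 areas were fitted (limma adjusted p = 0.0367).

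The 3 lost regions of the locus were intronic. The strongest, chr19:29478599-29479028, had percentiles of 43.6 and 45.2 in WT, the highest of the 7 lost regions, and it lies in A930007I19Rik. Within Pdcd1lg2, chr19:29417944-29418254 was at 29.6 and 33.7 and chr19:29463661-29463942 at 1.61 and 14.1. The sequences around the summits of the strongest lost region (chr19:29478772-29478972) and of the region with the largest negative difference (chr19:29484707-29484907) are shown, since these mark the clearest differences among the members. A STAT6 match stands in capitals in the former, and the latter had no match to a motif searched.
Lost region near Pdcd1lg2: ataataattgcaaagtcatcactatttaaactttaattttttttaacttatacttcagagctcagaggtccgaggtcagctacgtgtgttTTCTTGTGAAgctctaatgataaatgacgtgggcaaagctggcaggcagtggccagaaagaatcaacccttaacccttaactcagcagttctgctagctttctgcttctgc
Region of largest difference near Pdcd1lg2: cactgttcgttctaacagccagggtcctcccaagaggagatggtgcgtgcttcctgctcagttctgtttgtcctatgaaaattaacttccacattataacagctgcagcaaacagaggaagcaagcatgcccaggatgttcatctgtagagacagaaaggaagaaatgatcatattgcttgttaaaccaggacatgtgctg

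**Figure D3:**
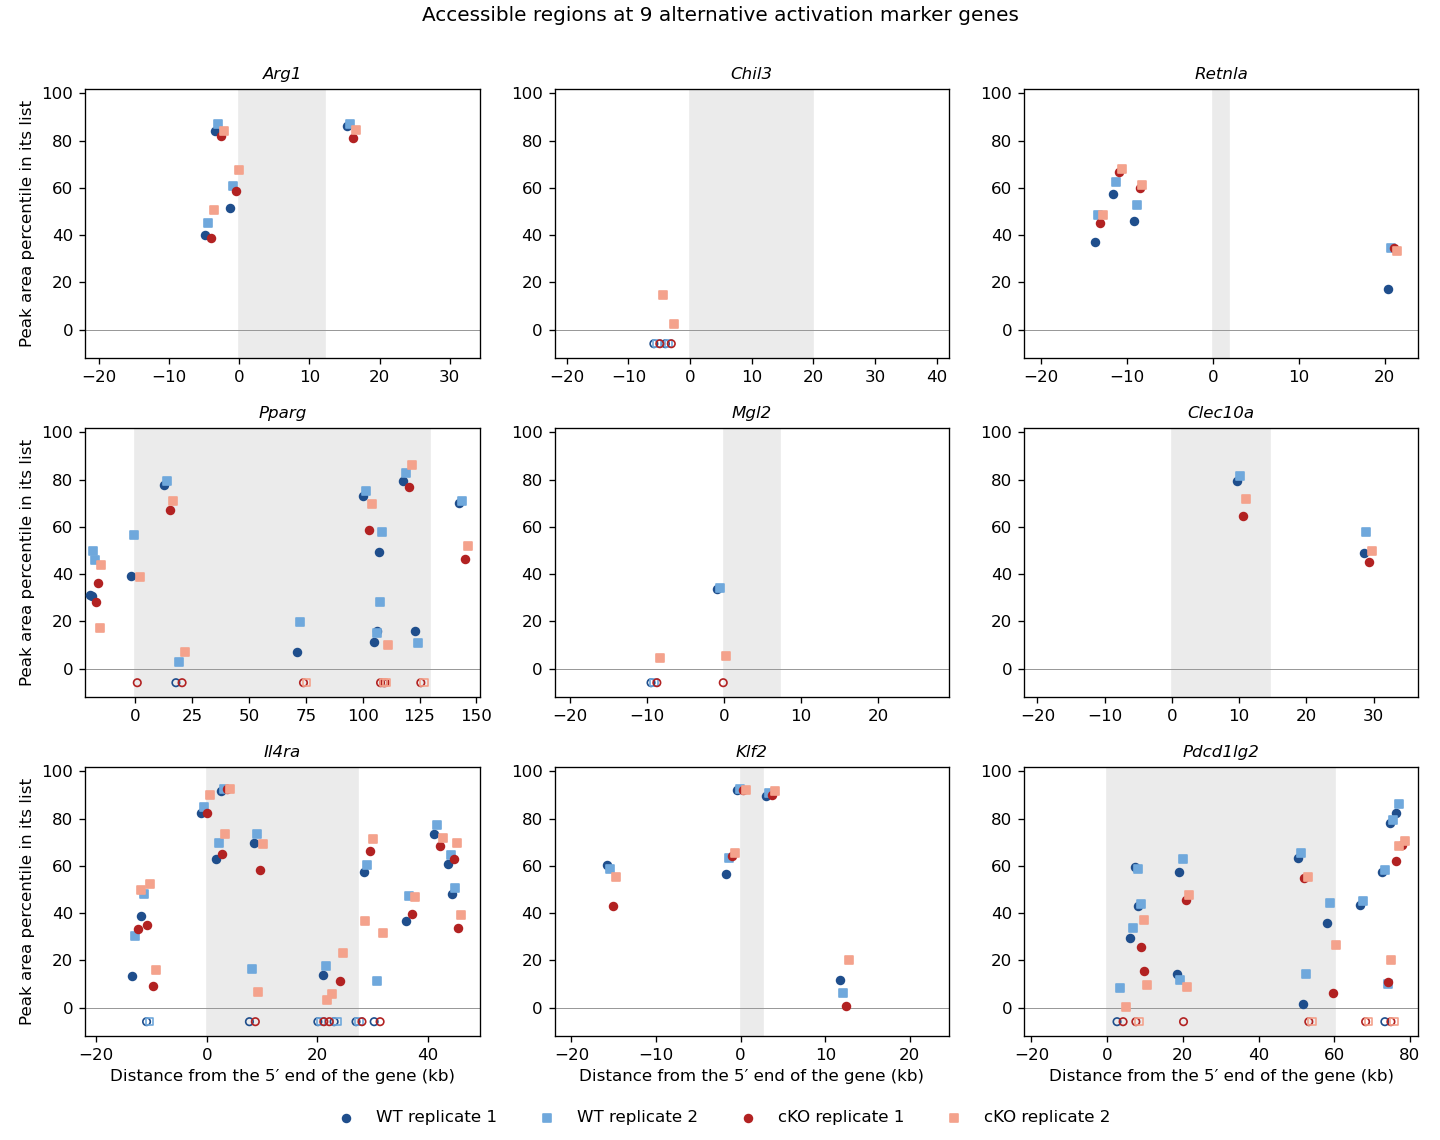
Percentile of the peak area in each library (y axis) against distance from the 5′ end of the gene (kb, x axis), 1 panel per gene with the gene body shaded, WT in blue and cKO in red. Points of a region are set side by side for legibility and open symbols below 0 stand for libraries without a peak, as for the 7 lost regions at Pparg and Pdcd1lg2.

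By promoter, 4 of the 9 genes (Arg1, Clec10a, Il4ra and Klf2) had a promoter peak in all 4 libraries. Pparg and Mgl2 had one in 3 libraries, with cKO replicate 1 the exception for both, and Chil3, Retnla and Pdcd1lg2 had none. The order of the promoter peaks by percentile in WT was Klf2, Il4ra, Clec10a, Arg1, Pparg and Mgl2. The ranges of Arg1 and Pparg overlapped in WT, and those of the other neighbours in this order did not. In the cKO lists the order was the same where a peak was called, and the values of Clec10a (64.7 and 71.7) and Arg1 (58.7 and 67.5) overlapped.

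The members were mostly not promoters. By the position of their centre, 27 of 64 (42.2%) were intergenic, 27 (42.2%) intronic, 5 (7.81%) exonic and 5 (7.81%) at promoters of any gene, against 30.4%, 47.8%, 6.79% and 15.0% of all regions. All 7 lost members were intronic, as were 58.0% of all 5164 lost regions.

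Consensus motifs were searched on both strands within 100 bp of the summit. The STAT6 motif TTCNNNNGAA was found in 7 of 64 members (10.9%) and in 5.32% of all regions. These 7 were distributed over Arg1, Pparg, Il4ra and Klf2 with 1 each and Pdcd1lg2 with 3. PU.1 (GAGGAAGT) was matched in 14.1% of members and 11% of all regions, C/EBP (TTGCNNAA) in 18.8% and 12.3%, AP-1 (TGANTCA) in 20.3% and 16.6%, and RUNX (AACCACA) in 10.9% and 8.38%. The KLF motif GGGNGTGG had 6.25% and 8.22%, and the NF-kB motif GGGANNTTCC had 1.56% and 1.26%. The direct repeat bound by PPAR and RXR, in its strict form, had 0 matches in the members and 23 in all regions. The median GC content of the windows was 47.8% in the members and 48.8% in all regions. Motifs can overlap, and a match is no evidence of binding.

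Other genes of the IL-4 and IL-13 pathway were taken from a list of 35, with 287 regions. Of these 10 (3.48%) were gained and 25 (8.71%) lost, against 3.72% and 7.25% of all regions. Limma with equal lengths called 22 of 167 higher (13.2%) and 17 lower (10.2%), against 12.1% and 11.8% of all regions, so these shares were near those of all regions. Among receptor chains and signalling genes such as Jak1 and Stat6, 3 of 94 regions were lost (3.19%). Among effector and marker genes such as Mrc1, 7 of 110 were lost (6.36%). Among transcription and chromatin factors, 15 of 83 were lost (18.1%), and 6 of these 15 lay at Rxra, which encodes the partner of PPARγ on DNA. Equal-length limma calls were 7 higher and 5 lower among receptor chains and signalling genes, and 10 and 7 among effector and marker genes. Transcription and chromatin factors had 5 and 5. The regions tested were not counted by group, so these calls are given without shares. The most higher calls in these groups were 4 at Jak3, 4 at Msr1 and 3 at Kdm6b. The most lower calls were 3 at Stat6, 2 at Mrc1 and 3 at Rxra.

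At Rxra (chromosome 2, 27676440 to 27762957), 6 of 13 regions were lost. The strongest, in an intron (chr2:27690831-27691526), was at 19.8 and 46.6 in WT. Its 3 regions called in all 4 libraries were intronic, had both cKO values below both WT values and were all called lower by limma with equal lengths, for example chr2:27758231-27758716 at 40.3 and 46.6 in WT against 5.31 and 25.8 in cKO (adjusted p = 0.0366). The Rxra promoter peak was weak, at 1.20 and 7.22 in WT, 1.01 in cKO replicate 2 and not called in cKO replicate 1. At Mrc1, which encodes the mannose receptor, 2 of 16 regions were lost, both weak, with 16.2 the highest WT percentile, and 1 was gained. The main Mrc1 promoter region, chr2:14228942-14229694, was called in all 4 libraries, at 66.3 and 71.6 in WT against 55.8 and 56.8 in cKO (limma adjusted p = 0.0663 with equal lengths). Myc had 2 lost regions of 8, both weak, with 14.0 the highest WT percentile. A Myc promoter region, chr15:61984261-61984645, was at 11.3 and 22.1 in WT against 22.6 and 42.7 in cKO and was called higher by limma with equal lengths (adjusted p = 0.0213), and the median difference of its 6 shared regions was 8.51 points. At Cebpb, 2 of 9 regions were gained, the larger at chr2:167687560-167687932 (33.6 and 46.4 in cKO), and 1 was lost. Cd36, a scavenger receptor gene controlled by PPARγ in macrophages, had 2 gained and 2 lost regions of 17.

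For comparison, 14 genes of classical activation, such as Nos2, Tnf and Il1b, had 79 regions, of which 2 (2.53%) were gained and 3 (3.80%) lost. With equal lengths limma called 9 of 54 higher (16.7%) and 4 lower (7.41%), against 12.1% and 11.8% of all regions. Of the higher ones, 2 lay at Tnf and 2 at Cd86. Of the lower ones, 2 lay at Ccl5, where the median difference of the shared regions was -33.4 points. No gene of this list had 2 or more gained or lost regions. These shares are set side by side without a test of the difference between the lists.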

How the data were processed

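Chromatin accessibility was measured by ATAC-seq in 4 libraries, 2 WT and 2 cKO, grouped by their titles. The authors aligned paired reads to mm10 with Bowtie2 2.5.1 and called peaks per library with Genrich at default settings. Read filtering, duplicate handling and any offset for the transposase were not given in the sources used here. The signal used here is the deposited peak area, and the deposited -log10 p-value at the summit was used in an alternative. The lowest area rounded to 200 in every list, so weaker sites are missing, and an area depends on depth. Read depth was not analysed here and is unknown, so no interval for counting error could be given.

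Peaks overlapping by at least 1 bp were merged, and the largest peak of a library gave the percentile of a region. Genes, promoters and classes follow GENCODE M21 basic, 1-based. Sequences came from the RefSeq mm10 assembly with samtools 1.23.1. The normal scores were fitted with limma 3.58.1 (R 4.3.3) on regions called in all 4 libraries, with Benjamini-Hochberg adjustment over all of them, after the fit was tested on simulated data. The number of peaks and the length they covered were set against an exact permutation test (Python 3.11.15, numpy 2.4.6, pandas 2.3.3). The study tested read counts, which was not possible with peak lists.

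The members and lists were chosen with earlier results of these data known. Member regions were described in full where they were gained, lost, at a promoter, or moved by 10 points or more. Genes of the other lists were described if they had 2 or more gained or lost regions. Those with the most equal-length limma calls of their group in a direction were also named. Alternatives were windows of 10 and 50 kb, peaks above the median area of their list, lists of equal length, 50% cover of a region, windows of 100 bp around summits, summed areas, log2 areas, a percentile minimum of 25, promoters of 2.5 kb, the replicate block and each library left out.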

Additional observations from a re-analysis of the deposited data

How the results depend on the processing

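The number of lost members was 11 with windows of 50 kb and 3 with the stricter threshold, which left 0 gained, and none of the 9 gained or lost regions kept its status under that threshold. With lists of equal length, 2 of 2 gained and 3 of 7 lost regions kept theirs, and 1 region each at Pparg and Mgl2 was newly lost, which made 5 lost. In the stricter setting the IL-4 pathway list had 2 gained and 6 lost regions, and the classical list had 5 gained with equal lengths. For members in the limma test, log2 areas gave 5 higher and 10 lower calls, equal lengths 3 and 7, a percentile minimum of 25 gave 2 lower, and the summit p-value 1 lower. Over all regions, log2 areas gave 9087 higher and 6315 lower of 44820, and equal lengths 5028 and 4907 of 41715. The percentile minimum gave 218 and 440 of 40512, and the summit p-value 98 and 235 of 44820. Over the 16 regions named for a difference of 10 points or more, 0 of 159 alternative values changed direction. These regions were picked by that difference in the same lists, so the kept direction is no independent support for them. Non-overlapping members higher in cKO numbered 17 of 38 with equal lengths, against 36.8% of all regions compared in that way.

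Leaving out 1 library gave differences of -12.5 to 0.5 peaks and of -6.56 to -0.74 kb, and the peak difference changed sign, to 0.5, without cKO replicate 1. With 1 library left out, a single library stands for its genotype, so gained and lost counts can rise in any set of regions. The shares over all regions in these settings are not given here. Gained members ranged from 2 to 7 (7 without cKO replicate 1) and lost members from 7 to 12 (12 without cKO replicate 2). On the IL-4 pathway list 10 to 19 regions were gained, with 18 without WT replicate 2 and 19 without cKO replicate 1, and 25 to 56 were lost, with 56 without WT replicate 1 and 46 without cKO replicate 2. On the classical list 2 to 5 were gained, with 4 without WT replicate 2 and 5 without cKO replicate 1, and 3 to 8 were lost, with 8 without WT replicate 1 and also without cKO replicate 2. Each such limma fit left 1 library in a genotype, so only effect sizes are given. The median normal-score difference of members ranged from -0.204 without cKO replicate 2 to -0.037 without WT replicate 2. Over all regions the medians of these fits were -0.128 and 0.013. Non-overlapping members higher in cKO ranged from 6 to 16, with 14 without WT replicate 2 and 16 without cKO replicate 1. Alternatives for the pathway lists and the non-overlapping counts, and the summit p-value, were chosen after seeing the data.

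Same-numbered libraries shared only a number, and their deviations correlated at 0.219. With the replicate block the differences were -6 peaks and -3.65 kb, limma called 0 of 40 members, and 15 passed an unadjusted p of 0.05 against 10 without it. Of all 44820 regions, 17321 passed that threshold with the block and 10039 without it, so the rise was not particular to the members.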

Other observations

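Neighbours of 2 of the loci were read in the same way, chosen after their values were seen. Cd274, which encodes PD-L1 and lies upstream of Pdcd1lg2 on chromosome 19 (29367455 to 29388095), had 4 regions over its gene body. Its promoter region was at percentiles 49.9 and 63.1 in WT against 55.8 and 66.2 in cKO, which overlapped. The other 2 regions called in all 4 libraries had both cKO values below both WT values, with 46.5 and 53.7 in WT against 35.9 and 32.3 in cKO at chr19:29380590-29380928 and 39.7 and 51.0 against 26.5 and 39.0 at chr19:29384978-29385310. The remaining region, in an intron, was lost (25.6 and 28.6 in WT). Il21r, the cytokine receptor gene downstream of Il4ra on chromosome 7 (125603429 to 125633570), had 6 regions, 4 of them called in all 4 libraries and none gained or lost. Of those 4, 2 had both cKO values below both WT values. That order, also seen in 2 of 3 such regions at Cd274, was found for 35.1% of all regions called in all 4 libraries. Its promoter region was at 82.9 and 85.3 in WT against 77.1 and 81.3 in cKO, and an intronic region, chr7:125622989-125623738, was at 68.5 and 76.5 in WT, 21.9 in cKO replicate 2 and not called in cKO replicate 1.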
